A study of Mus musculus with 25 samples.

Results

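Peaks of chromatin proteins were described around 6 genes of the Notch pathway, Notch1, Notch3, Rbpj, Hes1, Dtx1 and Nrarp, out of 21887 protein-coding genes on the mouse chromosomes. The genes were chosen by name for their place in the pathway, with no threshold on a measured value, although earlier results of these data were known. Each gene was followed in a window of its gene body plus 50 kb on both sides, and the measure was the length of that window covered by peaks, in kb. The study used chromatin immunoprecipitation and sequencing (ChIP-seq) in 2 mouse cell lines to ask how the transcription factor TCF-1, the product of Tcf7, reshapes genome folding, and 25 peak lists were available. The first line, Scid.adh, is a T cell line that the labels call DN3 cells, after an early stage of thymocytes. It was wild type and carried an empty vector (EV) or was a TCF1 KO line (KO), with 2 lists per condition for CTCF, SMC1, NIPBL and H3K27ac and 2 lists for TCF-1 in EV cells. The second line was NIH-3T3, a fibroblast line, untreated or with TCF1 induced, with 2 CTCF lists and 1 SMC1 list per condition and 1 TCF-1 list for the induced cells. The labels name no clone, construct or inducing agent, and replicate lists carry a number but no separate culture, so the spread between them may be technical.

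Notch receptors are cleaved after they bind a ligand on a neighbouring cell, and the freed intracellular part enters the nucleus, where it joins the DNA-binding protein RBPJ and Mastermind-like coactivators to switch on target genes. In the thymus this signal commits progenitors to the T lineage and raises Tcf7, and it remains needed through the DN3 stage. CTCF is the zinc finger protein that stops loop extrusion, SMC1 is a core subunit of the cohesin ring that extrudes loops, NIPBL is the cohesin loader, and H3K27ac is a histone mark of active promoters and enhancers.

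Positions are those of the mm10 files and of the RefSeq genes of GRCm38.p6, the same build, and exons were not used here. The receptor genes were Notch1 at chr2:26457902-26503822 and Notch3 at chr17:32120820-32166896, both on the minus strand. Notch1 and Notch3 encode the 2 receptors of the pathway that early thymocytes are best known for. Rbpj, the gene of the nuclear mediator, lay at chr5:53555779-53657445 on the plus strand. Of the target genes, Hes1 lay at chr16:30065357-30067796 and encodes a repressor of the bHLH family, and Nrarp lay at chr2:25180758-25183339 on the plus strand and encodes a feedback inhibitor of the Notch complex. Dtx1 lay at chr5:120680203-120711867 on the minus strand and encodes Deltex, a ubiquitin ligase and negative regulator. The windows also held other genes, among them Inpp5e and Sec16a at Notch1, Ephx3 at Notch3, Cckar at Rbpj, and Cfap73, Rasal1, Oas2 and Oas3 at Dtx1. The Nrarp window held Tor4a, Nelfb, Stpg3, Fam166a, Tubb4b and Slc34a3, and the Hes1 window held no other protein-coding gene.

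Start sites and promoter bases came from RefSeq for 5 of the 6 genes: Notch1, Notch3, Rbpj, Dtx1 and Nrarp. The 250 bases before the start site are shown for Notch1 and Rbpj, whose start sites lay under TCF-1 peaks in both DN3 lists, and for Nrarp, whose start site lay under a TCF-1 peak in list 1 alone. They run 5′ to 3′ on the strand of the gene. Capitals mark matches to TGGGAA, the core bound by RBPJ, or to its reverse complement.
Notch1, chr2:26503823-26504072: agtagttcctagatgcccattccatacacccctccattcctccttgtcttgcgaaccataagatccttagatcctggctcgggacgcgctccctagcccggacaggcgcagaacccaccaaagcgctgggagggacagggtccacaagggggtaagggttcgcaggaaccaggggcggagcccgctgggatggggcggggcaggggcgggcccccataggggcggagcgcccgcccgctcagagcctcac
Rbpj, chr5:53590096-53590345: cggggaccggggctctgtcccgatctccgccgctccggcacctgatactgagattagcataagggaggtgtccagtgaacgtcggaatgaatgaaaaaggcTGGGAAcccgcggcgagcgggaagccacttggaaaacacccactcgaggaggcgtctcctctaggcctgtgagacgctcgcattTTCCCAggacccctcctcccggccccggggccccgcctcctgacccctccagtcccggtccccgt
Nrarp, chr2:25180508-25180757: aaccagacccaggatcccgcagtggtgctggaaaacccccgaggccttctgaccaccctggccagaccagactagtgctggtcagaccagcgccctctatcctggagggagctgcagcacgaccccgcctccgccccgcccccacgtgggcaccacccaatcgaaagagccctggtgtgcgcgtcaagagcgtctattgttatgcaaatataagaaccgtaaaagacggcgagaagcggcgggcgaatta
The Rbpj bases held TGGGAA once on each strand, starting at -149 and -65 from the start site, and the other 4 promoters held none. Of 32851 mouse promoters of the same length, 21.6% held TGGGAA on either strand. The longer GTGGGAA (5.42% of promoters), the TCF core CTTTGA (13.8%) and its longer form CTTTGAT (3.21%) had no match in any of these 5 windows. CACNAG, the N box bound by HES repressors, was in 36.7% of promoters, once each in those of Notch1 and Dtx1 and in 2 places each in those of Notch3 and Nrarp; a match is only a run of letters.

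The lists held between 4978 and 105033 peaks and gave no read counts, so depth behind each peak is unknown and no counting interval was made. In DN3 cells, H3K27ac covered a summed 107 to 111 kb at the 8 DN3 markers (Rag1, Rag2, Ptcra, Il2ra, Cd3e, Bcl11b, Thy1 and Lck, within 2 kb), with only Rag2 listed at 0 in EV cells. Peaks stood at 2 of 4 B cell markers (2.46 to 3.40 kb, Ebf1 and Pax5 at 0), at 1 of 4 myeloid markers (12.2 to 13.3 kb in EV, 15.7 to 16.8 kb in KO; Cebpa, Csf1r and Lyz2 at 0), and at 1 of 3 natural killer markers in EV and none in KO cells. Of 6 fibroblast markers 1, Pdgfrb, had H3K27ac, 12.4 to 13.2 kb in EV and 21.2 to 22.0 kb in KO cells, and Col1a1, Col1a2, Col3a1, Pdgfra and Twist1 were at 0. In NIH-3T3 cells, SMC1 covered 104 kb untreated and 97.2 kb induced at the 6 fibroblast markers. At the 8 DN3 markers it covered 9.03 kb untreated and 9.47 kb induced. At the 4 B cell markers it covered 46.9 kb untreated and 38.8 kb induced, most of it at Ebf1 (44.1 and 36.0 kb). The 4 myeloid markers had 5.45 and 4.49 kb, and the 3 natural killer markers had 0. No TCF-1 list of KO cells or of untreated fibroblasts was used, and these peaks therefore give no check of the knockout or of the induction.

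Cohesin (SMC1) covered more of 4 of the 6 genes in KO cells than in EV cells, and less of 1, Rbpj. Hes1 was covered over 12.7 and 11.6 kb in the 2 EV lists and 21.1 and 20.3 kb in the 2 KO lists. Notch3 was covered over 10.1 and 9.97 kb in EV and 16.6 and 16.9 kb in KO cells. Notch1 was covered over 23.8 and 18.99 kb in EV and 34.4 and 31.0 kb in KO cells. Both KO lists therefore stood above both EV lists at these 3 genes, by 1.71-fold (Hes1), 1.67-fold (Notch3) and 1.53-fold (Notch1) in the means. Dtx1 had 13.8 and 10.7 kb in EV and 17.8 and 15.9 kb in KO lists, again without overlap. At Nrarp the lists overlapped, with 21.2 and 17.8 kb in EV and 21.6 and 19.1 kb in KO cells. Rbpj went the other way, with 10.8 and 10.1 kb in EV and 5.95 and 7.09 kb in KO lists, so its mean was 1.60-fold higher in EV cells (10.4 ± 0.535 against 6.52 ± 0.812 kb, SD, n = 2).

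The background was strongly one-sided. Both KO lists were above both EV lists at 73.8% of the 19432 genes with SMC1 in their window, and both EV lists were above both KO lists at 1.14%. The count of 4 of 6 genes higher in KO cells lies near the first share, while the EV-higher direction of Rbpj was rare. With 2 lists against 2, the exact 2-sided permutation test cannot go below p = 0.333, and groups that do not overlap reach that value. The KO lists were also longer: the SMC1 lists covered on average 54.3 Mb in KO and 38.1 Mb in EV cells. On the log2 scale (mean covered bp plus 1000, EV minus KO), the median of all genes was -0.31, and dividing each list by its own total moved it to 0.06. The same division moved the median of all genes from -0.22 to 0.02 for CTCF, from -0.44 to 0.06 for NIPBL and from 0.63 to -0.01 for NIH-3T3 CTCF. After this scaling, 32.6% of genes were higher in EV and 15.9% higher in KO cells for SMC1, and Rbpj and Nrarp were higher in EV cells while Notch3 and Hes1 were higher in KO cells. Relative to the median gene, the unscaled SMC1 difference (EV minus KO) was 0.92 at Rbpj, 0.25 at Nrarp, -0.12 at Dtx1, -0.28 at Notch1, -0.37 at Notch3 and -0.41 at Hes1.

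**Figure D1:**
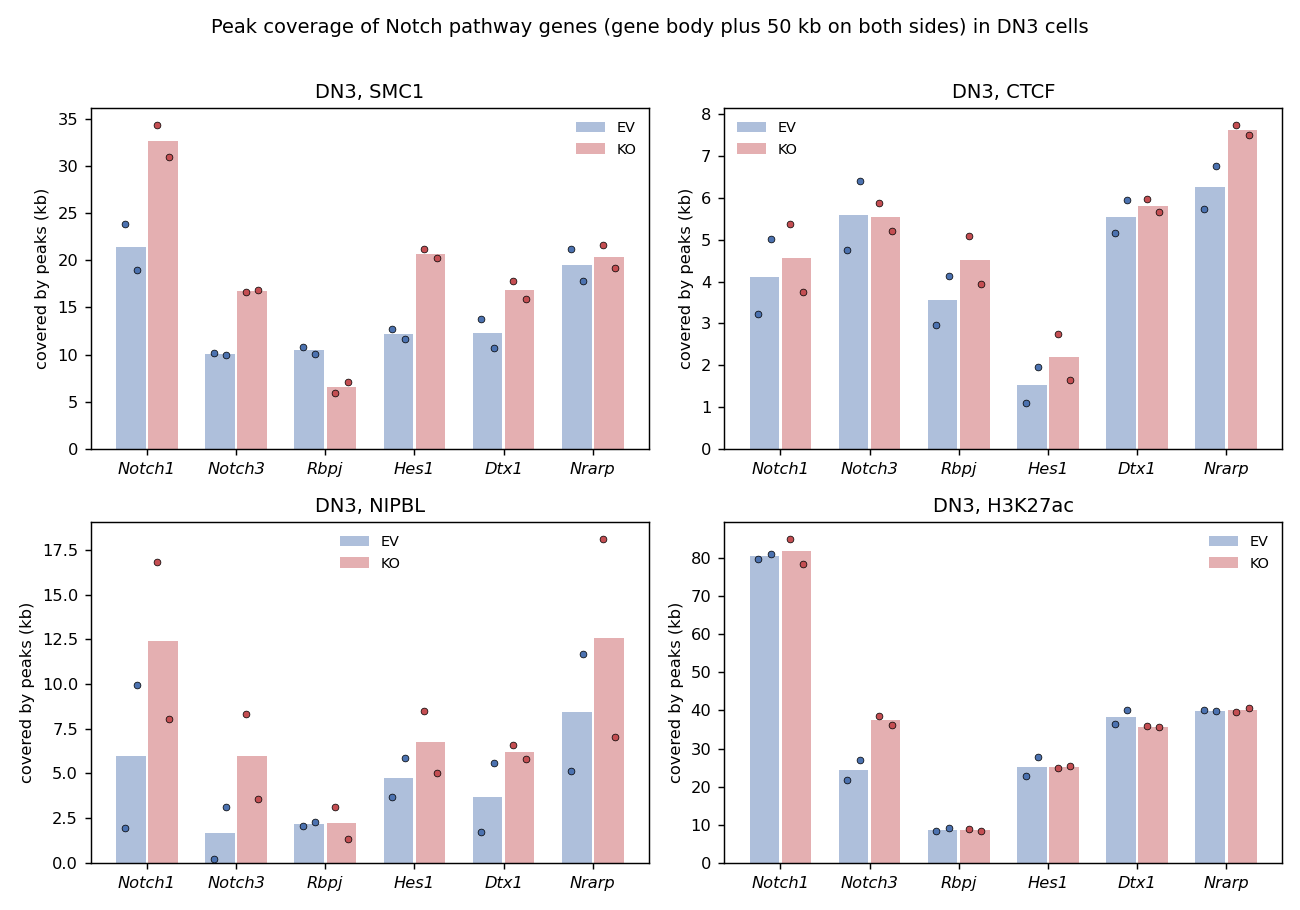
Length of each gene window (body plus 50 kb on both sides) covered by peaks in DN3 cells, in kb, for SMC1, CTCF, NIPBL and H3K27ac. Points are single lists, bars are means of the 2 lists per condition, blue is EV and red is KO. Rbpj is the gene whose 2 EV points for SMC1 lie above its 2 KO points.

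The Rbpj difference lay in part at 2 regions that only EV lists held, and the gene body was covered over 7.47 and 7.14 kb in EV and 4.99 and 5.98 kb in KO lists. A cohesin region in the lower-coordinate flank, upstream of the gene, spanned chr5:53504702-53507892, was in both EV lists and in neither KO list, and met a TCF-1 site at chr5:53507394-53507670 that both TCF-1 lists held. This TCF-1 site lay 48109 bp from the gene body and met no CTCF or NIPBL peak in any DN3 list and no H3K27ac peak, although EV list 2 had a 0.261 kb H3K27ac peak that began just beyond it. The EV SMC1 peaks there were 3.16 and 2.47 kb wide, with a further 0.280 kb peak in list 1, and no SMC1 peak was called in that whole flank in KO cells. A second region at chr5:53566112-53567612 lay in the annotated gene body but upstream of the start site (chr5:53590346), with its midpoint at -23484 bp. It was again held by both EV and no KO lists and met no TCF-1 site. H3K27ac was called at that second region in all 4 lists, with a deposited fold enrichment of 5.55 and 6.40 in EV and 4.58 and 4.40 in KO lists, and a NIPBL peak of 0.461 kb was called there in KO list 1. At the start site, cohesin was called in every list. The Rbpj direction was the same under all 13 alternatives to the window, threshold, scale or lists used, with the log2 difference between 0.31 and 1.07 against 0.61, and 0.160% of genes had a larger difference. Both EV-only regions stand beside 1136 such regions among 117373 over the genome, or 0.968%.

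**Figure D2:**
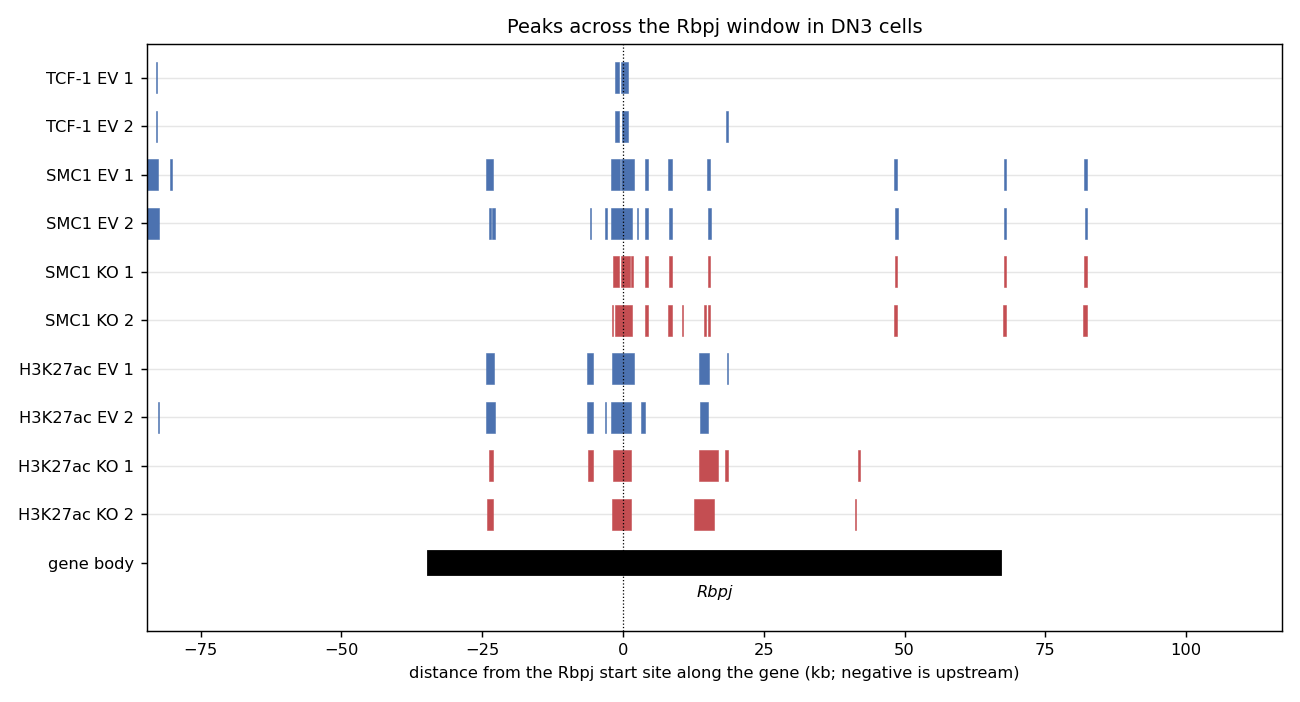
DN3 peaks across the Rbpj window, drawn by distance in kb from the RefSeq start site, for TCF-1, SMC1 and H3K27ac with 1 row per list (blue EV, red KO). SMC1 rows of EV cells have blocks at the far left and in the body, centred -23484 bp from the start site, that the KO rows lack, whereas H3K27ac blocks at the latter place are in all 4 rows.

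At the other genes the regions called in only 1 condition were KO regions. Hes1 had 4 of them, at chr16:30022570-30022981, chr16:30029640-30029874, chr16:30044762-30045040 and chr16:30077457-30078046. Notch1 had 3, of which 2 had midpoints at -1480 and -2006 bp from its start site. Notch3 had 3, of which 1 lay in its body (chr17:32156034-32156759). Dtx1 had 1, in its neighbour Rasal1, and Nrarp had none. In all, 11 of the 166 SMC1 regions of the 6 windows (6.63%) were KO only, beside 9.26% of all regions. None of the 11 met a TCF-1 peak of EV cells. Requiring both lists of a condition keeps such counts low: without EV list 1, EV list 2, KO list 1 or KO list 2 the KO-only regions were 20, 18, 27 and 31 and the EV-only regions 13, 13, 8 and 2.

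H3K27ac covered 21.7 and 26.9 kb of the Notch3 window in EV and 38.6 and 36.3 kb in KO lists, 1.54-fold more in the KO means (37.4 ± 1.63 against 24.3 ± 3.70 kb, SD, n = 2). Notch3 was the only one of the 6 genes called higher in KO cells, beside 28.5% of all 15923 genes tested, so that count is below the background share, and 4.99% of genes had a lower log2 difference. Dtx1 was the only one called higher in EV cells, beside 35.5% of genes, with 36.5 and 40.2 kb in EV and 35.8 and 35.6 kb in KO lists. That ratio was 1.07, and keeping only peaks at or above the median q-value of their list turned it, to 25.1 and 26.3 kb in EV and 30.8 and 31.8 kb in KO lists. That threshold also called Notch1 higher in KO cells, and lists of equal length called Notch1 and Rbpj higher in KO cells and no longer called Dtx1. The other 4 genes overlapped between conditions. Of the 68 H3K27ac regions of the windows, 3 were EV only (4.41%, beside 7.99% of all regions) and 4 KO only (5.88%, beside 4.82%). Without EV list 1, EV list 2 or KO list 1 the EV-only count was 14, 7 and 7, and without KO list 1 or KO list 2 the KO-only count was 8 and 9. Notch1 had 79.8 and 81.1 kb in EV and 85.1 and 78.5 kb in KO lists. Hes1 had 22.7 and 27.7 kb in EV and 25.02 and 25.4 kb in KO lists. The KO values of Notch1 lay on both sides of its EV values, and those of Hes1 lay between its EV values. Nrarp had between 39.6 and 40.6 kb and Rbpj between 8.32 and 9.08 kb in the 4 lists. The H3K27ac lists had nearly equal totals, on average 90.5 Mb in KO and 90.6 Mb in EV cells. Over the genome, the KO lists held fewer and wider peaks, 36544 and 37629 with median widths of 1564 and 1529 bp. The EV lists held 38827 and 42180 peaks with median widths of 1454 and 1339 bp. The EV-higher count of 1 became 2 without KO list 1, 2 without KO list 2 and 3 without EV list 1, and the KO-higher count of 1 became 2 without KO list 1, 2 without KO list 2 and 3 without EV list 2. Such counts rise more easily at every gene when a list is left out, and their share of all genes is not given.

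The Notch3 start site lay under an H3K27ac peak of 4.34 and 6.26 kb in EV lists and of 20.2 and 21.9 kb in KO lists. In EV cells, separate peaks upstream of the start site took the place of that single block. The extra coverage lay mostly in the higher-coordinate flank, upstream of Notch3, with 12.6 and 15.0 kb in EV and 24.9 and 22.5 kb in KO lists. A KO-only region was called over one end of Ephx3, an epoxide hydrolase gene, at chr17:32188155-32190504. The deposited fold enrichment of the start site peak was 6.77 and 6.05 in EV and 6.36 and 6.26 in KO lists, so the peak was wider in KO cells with fold values in the same range. Counted as peaks rather than kb, Notch3 had 11 and 13 in EV and 11 and 10 in KO lists, since fused peaks count once. Notch3 was also higher in both KO lists for SMC1 and NIPBL. Other genes share this window, so the coverage is not assigned to Notch3 alone.

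**Figure D3:**
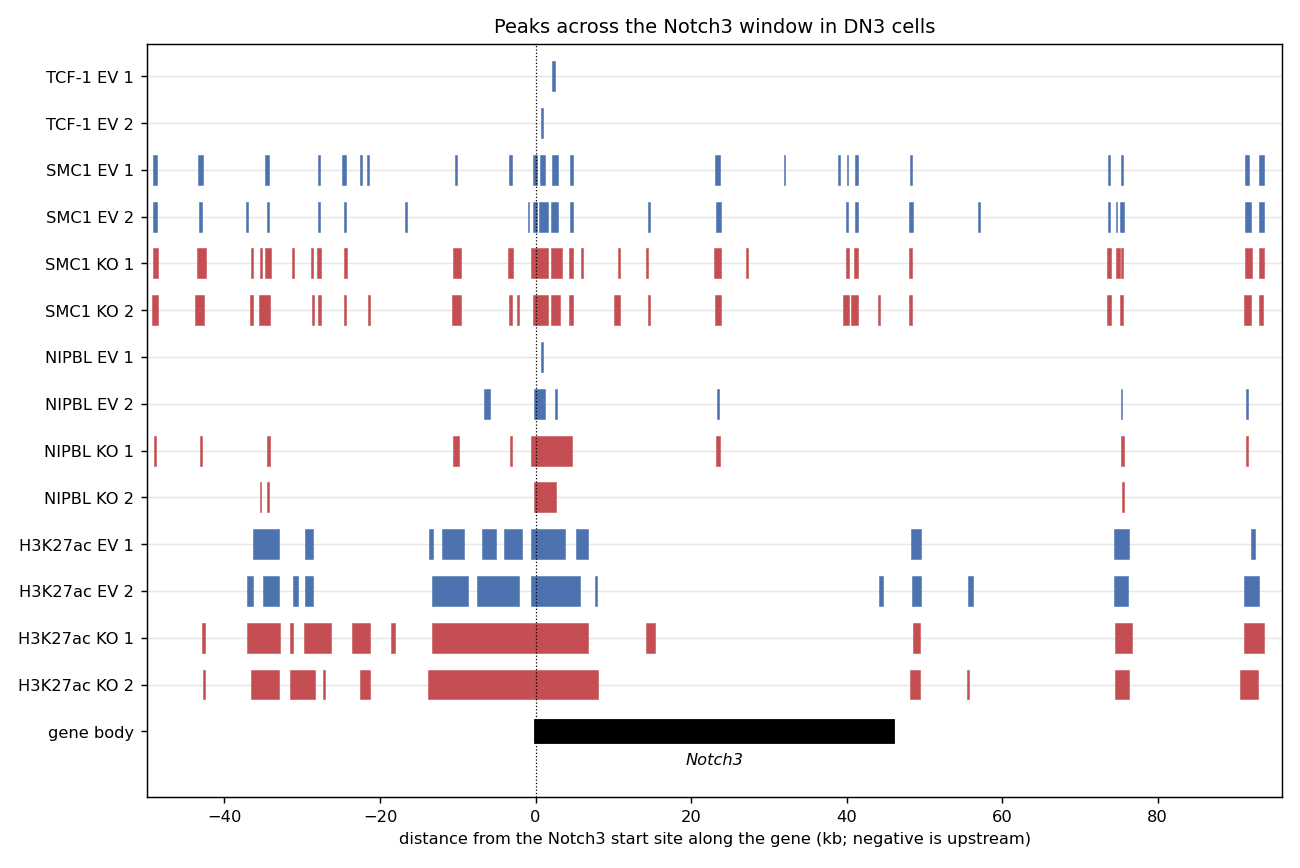
DN3 peaks across the Notch3 window, by distance in kb from the start site (negative is upstream), with 1 row per list for TCF-1, SMC1, NIPBL and H3K27ac (blue EV, red KO). The KO rows of H3K27ac have a single block over the start site, 20.2 and 21.9 kb wide, where the EV rows have several separate blocks.

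Peaks upstream of Notch1 were also joined in KO cells, although its coverage overlapped between conditions. Its EV lists had 3 long H3K27ac peaks from the start site outward, 22.8, 14.4 and 25.5 kb wide in list 1 and 22.7, 13.4 and 25.5 kb in list 2. Its KO lists had a single peak of 68.4 and 66.0 kb. The KO lists held fewer and wider H3K27ac peaks over the whole genome, so joined peaks are not read as particular to Notch1 or Notch3. The upstream flank of Notch1 was covered over 48.3 and 47.5 kb of its 50 kb in EV and over all of it in both KO lists. H3K27ac covered a larger share of the window at Notch1 than at any other of the 6 genes, on average 55.1% in EV and 56.0% in KO lists. Nrarp came next with 38.9% and 39.1%. Rbpj was lowest, with 4.31% in each condition. Between these, the EV order was Dtx1 (29.1%), Hes1 (24.6%) and Notch3 (16.6%), and the EV lists of neighbouring genes in it did not overlap. In KO cells Dtx1 (27.1%) stood above Notch3 (25.6%) and Hes1 (24.6%).

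The cohesin loader NIPBL was called higher in KO cells at Notch3 and Dtx1 and in EV cells at none, beside 26.6% and 0.348% of 16075 genes. Notch3 had 0.234 and 3.15 kb in EV and 8.34 and 3.59 kb in KO lists, a 3.53-fold higher KO mean, and 1.52% of genes had a lower log2 difference. Dtx1 had 1.73 and 5.61 kb in EV and 6.6 and 5.8 kb in KO lists. At both genes the second lists of EV and KO cells were close and the first lists far apart. Dtx1 was not called by list total, in the gene body alone or with 100 kb flanks. With lists of equal length and under the stricter threshold, Notch1 was called KO higher in place of Dtx1. Notch1 (1.97 and 9.97 kb in EV, 16.8 and 8.03 kb in KO) and Nrarp (5.14 and 11.7 kb in EV, 18.1 and 7.06 kb in KO) overlapped between conditions. Hes1 had 3.67 and 5.86 kb in EV and 8.49 and 5.01 kb in KO lists. Rbpj had 2.08 and 2.29 kb in EV and 3.14 and 1.34 kb in KO lists, all at 1 or 2 peaks. In each of these 4 genes the first KO list was the highest and a KO value fell among or below the EV values. List length moved with this order: EV list 1 had 9206 peaks, KO list 1 had 23951, and the second lists had 15232 (EV) and 14107 (KO); the part of list length in the result was not tested. The KO-higher count of 2 was 6 without KO list 2 and 5 without EV list 2, and the EV-higher count of 0 was 1 without KO list 1. A call is easier at every gene with a list left out, and no share of all genes stands beside these counts. Scaled by list total, 21.5% of genes were higher in EV and 13.3% in KO cells, with Rbpj, Hes1 and Nrarp higher in EV and Notch3 higher in KO cells.

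NIPBL regions present in both lists of 1 condition only were few: of 60, 1 was EV only (1.67%, beside 0.251% of all regions) and 3 were KO only (5%, beside 5.88%). The lists set these counts too: EV only were 4 without EV list 1 and 2 without KO list 1, and KO only were 10 without EV list 2, 8 without KO list 1 and 21 without KO list 2. Dtx1 held an EV-only region in its body at chr5:120694319-120694906, with a deposited fold enrichment of 3.28 and 3.39. The KO-only regions included one upstream of Notch1 at chr2:26507168-26508962 and one in Rasal1 beside Dtx1 at chr5:120678847-120679941.

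For CTCF, Nrarp alone was higher in both KO lists, with 5.74 and 6.76 kb in EV and 7.76 and 7.51 kb in KO cells, beside 44.1% of 19348 genes. None of the 6 was higher in EV cells, beside 0.413% of genes. Nrarp also held the only 2 CTCF regions called in 1 condition only, both in KO cells, in Tor4a (chr2:25192674-25192937) and in Nelfb (chr2:25211413-25211632). These were 2.78% of 72 regions, beside 6.36% of all regions, and 0 were EV only, beside 0.46%. The KO-only count was 3 without EV list 1, 7 without EV list 2, 4 without KO list 1 and 9 without KO list 2. The Nelfb region met a TCF-1 peak of DN3 TCF-1 list 1. Notch3 had 4.76 and 6.40 kb in EV and 5.88 and 5.22 kb in KO lists, and Dtx1 had 5.15 and 5.95 kb in EV and 5.96 and 5.67 kb in KO lists. Notch1 had 3.21 and 5.03 kb in EV and 5.37 and 3.76 kb in KO lists. These lists interleave, as did those of Rbpj (2.97 and 4.12 kb in EV, 5.08 and 3.95 kb in KO) and Hes1 (1.10 and 1.96 kb in EV, 2.76 and 1.65 kb in KO). CTCF regions held by all 4 lists numbered 43 of 72 in the windows, of which 10 each lay at Notch3 and Dtx1 and 1 at Hes1. Scaled by list total, the split over all genes was 25.4% higher in EV and 17.6% in KO cells, and Notch1, Notch3 and Dtx1 were then called EV higher and Nrarp was no longer called. With 10 kb flanks, Rbpj was called KO higher in place of Nrarp. The KO-higher count of 1 was 5 without KO list 2 and 6 without EV list 2, and the EV-higher count of 0 was 1 without EV list 1. Leaving out a list makes a call easier at every gene, and the share of all genes is not given for these counts.

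TCF-1 in DN3 cells was held by both lists at 6 sites, in 4 of the 6 windows, beside 30.7% of all genes with such a site. Rbpj had 3: the distant one above, one of 723 bp with its midpoint 1042 bp before the start site, and one of 1188 bp over the start site. Notch1 had 1, at its start site (chr2:26503568-26503997). Dtx1 had 1 in its body (chr5:120685683-120686049) and Nrarp had 1 at 12392 bp before its body (chr2:25168032-25168366). Notch3 and Hes1 had none in both lists. Notch3 had 1 peak in each list at different places, both within its first 2317 bp by midpoint, and Hes1 had 2 in list 1 only, 950 and 1496 bp from its body. The sites of the 2 lists thus overlapped in part: 6 were in both, 16 in either, and each list alone held 11.

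All 6 shared sites met cohesin in both EV lists, 5 met NIPBL and 5 met H3K27ac in both EV lists, and 3 met CTCF. The exception to NIPBL and H3K27ac was the distant Rbpj site. No share over all TCF-1 sites of the genome stands beside these counts, so they are not read as particular to these genes. The Notch1 TCF-1 site met CTCF, SMC1, NIPBL and H3K27ac in every EV and KO list, and so did the Dtx1 site. In the 250 bases before the Notch1 start site, however, only 1 of the 2 EV lists had a NIPBL peak. At the distant Rbpj site alone, SMC1 was in both EV lists and in no KO list. At the other 5 sites SMC1 was in both KO lists too. TCF-1 covered 2.07 and 2.30 kb at Rbpj and at most 0.944 kb at any of the others.

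In NIH-3T3 fibroblasts, CTCF covered more of all 6 genes in both induced lists than in both untreated lists, as at 94.4% of 19370 genes. No gene of the 6 was higher in untreated cells, beside 0.0878%. Rbpj had 3.92 and 4.09 kb untreated and 8.81 and 10.8 kb induced, 2.45-fold more in the means. Notch3 had 4.71 and 4.29 kb untreated and 9.60 and 7.74 kb induced. Hes1 had 3.62 and 1.95 kb untreated and 8.35 and 4.44 kb induced. Of these 3 genes, Hes1 had the smallest gap between its lower induced and its higher untreated list. Dtx1 had 2.45 and 2.05 kb untreated and 4.95 and 4.63 kb induced, and Notch1 had 3.13 and 3.43 kb untreated and 4.45 and 5.84 kb induced. Nrarp had 3.56 and 3.85 kb untreated and 4.31 and 4.36 kb induced, a ratio of 1.17, and 5.10% of genes had a lower log2 difference. The induced lists covered 35.9 Mb on average and the untreated lists 18.9 Mb. Of 52 CTCF regions of the windows, 10 were in both induced and no untreated lists (19.2%, beside 21.2% of all regions) and 0 the reverse, beside 0.0504%. Dtx1 held 4 of the 10, Notch3 and Rbpj 2 each, and Notch1 and Hes1 1 each. The Hes1 region, at chr16:30111550-30112487, met a TCF-1 peak. Scaled by these totals, 25.5% of genes were higher in induced and 28.6% in untreated cells, and Rbpj alone remained higher in induced cells while Notch1 and Nrarp were higher in untreated cells. At the 2 places at and just before the Rbpj start site where DN3 TCF-1 was in both lists, CTCF was in both induced and no untreated NIH-3T3 lists, and TCF-1 of induced NIH-3T3 cells was also called.

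SMC1 in NIH-3T3 cells had 1 list per condition, so its differences have no replicate check and no test. Hes1 had 25.2 kb untreated and 39.4 kb induced, a ratio of 1.56, and was the only one of the 6 past 1.5-fold, beside 3.03% of 19209 genes past it in that direction. None was past 1.5-fold toward untreated cells, beside 9.94%. Notch3 had 20.2 kb untreated and 29.1 kb induced, and Notch1 had 25.2 and 30.6 kb. Rbpj had 30.9 kb untreated and 24.1 kb induced, the only one of the 6 with less in the induced list. Dtx1 (2.42 and 3.02 kb) and Nrarp (6.65 and 6.67 kb) had little in either, whereas DN3 SMC1 covered more than 10 kb of both in every list. Hes1 had 8 regions in the induced list alone and 1 in the untreated list alone. Rbpj had 8 in the untreated list alone and 3 in the induced list alone. Over the 6 windows, 21 of 103 regions were in the induced list alone (20.4%, beside 11.9% of all regions) and 10 in the untreated list alone (9.71%, beside 20.1%).

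TCF-1 in induced NIH-3T3 cells had 47 peaks in 5 of the 6 windows, beside 75.5% of all genes with a peak. Hes1 had 18, Notch1 11, Rbpj 9, Notch3 6, Nrarp 3 and Dtx1 0. All 47 met SMC1 in the induced list and 43 met it in the untreated list. The 4 without SMC1 in untreated cells all lay in the flanks of Hes1, at chr16:30037699-30037920, chr16:30095883-30096367, chr16:30102418-30102776 and chr16:30115939-30116138. CTCF met 19 of the 47 in both induced lists and 11 in both untreated lists. No share over all TCF-1 peaks of the genome stands beside these counts. The SMC1 lists were long, with 105033 peaks untreated and 95293 induced. Of the 6 shared DN3 sites, 2 met TCF-1 in the fibroblasts, both at or just before the Rbpj start site.

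**Figure D4:**
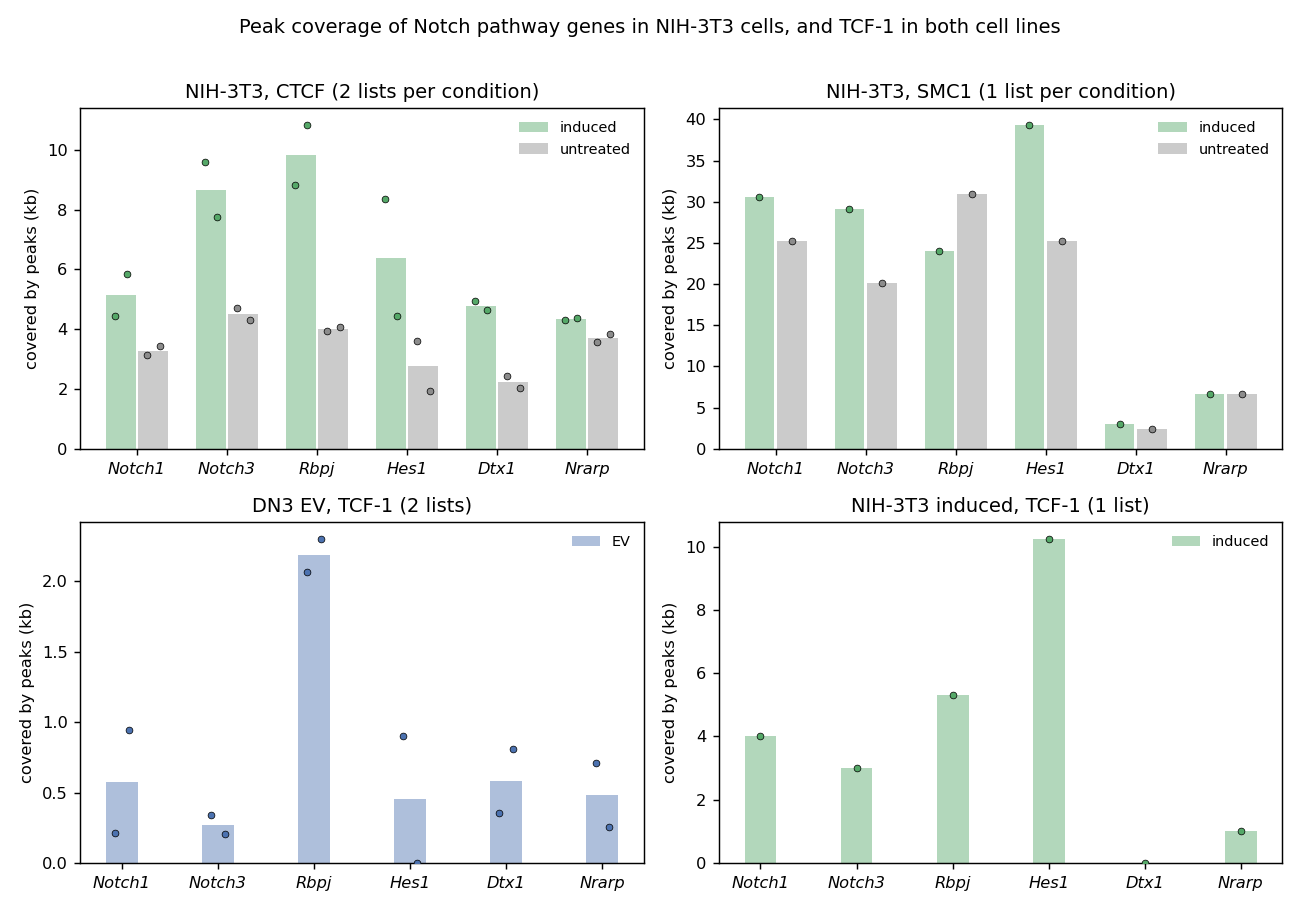
Length of each gene window covered by peaks, in kb, for CTCF and SMC1 in NIH-3T3 cells (grey untreated, green induced) and for TCF-1 in DN3 EV cells (blue) and induced NIH-3T3 cells (green). Points are single lists and bars are means, and panels with 1 list per condition have 1 point per bar. Hes1 has the most TCF-1 coverage in NIH-3T3 cells, 10.3 kb, and Rbpj the most in DN3 cells, 2.07 and 2.30 kb.

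Set beside all genes, the median log2 difference of the 6 genes was -0.51 for DN3 SMC1, against -0.31 for all genes, and -0.58 for NIPBL, against -0.44. For DN3 CTCF it was -0.19 against -0.22, and for H3K27ac it was -0.002 against 0.02. In NIH-3T3 cells it was 0.82 for CTCF, against 0.63, and 0.25 for SMC1, against -0.05. These medians describe 6 genes chosen by name.

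**Figure D5:**
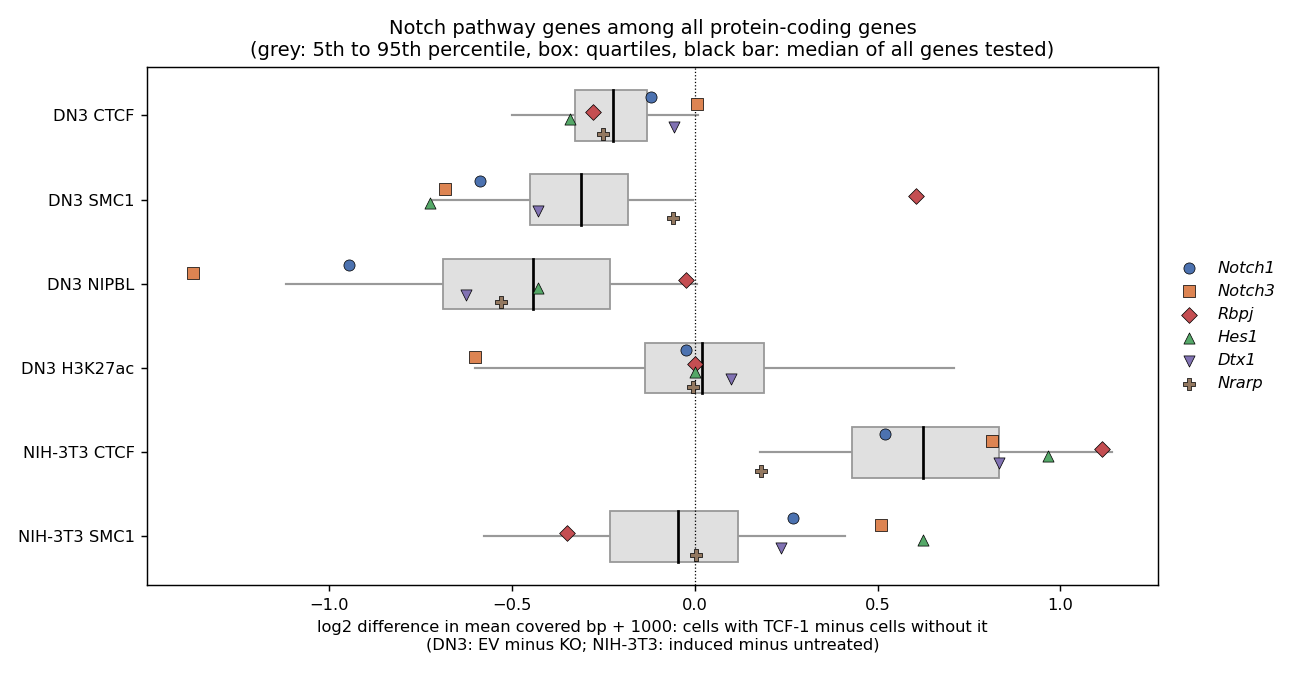
Log2 difference in mean covered bp plus 1000, cells with TCF-1 minus cells without it, for each of the 6 genes (symbols) over the distribution of all genes tested in 6 comparisons (grey line 5th to 95th percentile, box quartiles, black bar median). Rbpj lies at 0.61 for DN3 SMC1, right of the grey line, and Notch3 at -1.37 for DN3 NIPBL, left of it.

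The wider pathway was followed through 49 other genes: receptors, ligands, proteases, glycosyltransferases, coactivators, corepressors, ubiquitin ligases and targets. For DN3 SMC1, 40 of the 48 with a peak were higher in both KO lists and 1 in both EV lists, beside 73.8% and 1.14% of all genes. The EV-higher gene was Maml2, of the Mastermind-like coactivators, with 6.06 and 6.41 kb in EV and 4.72 and 5.92 kb in KO lists. The KO-higher genes with the largest ratios were Gata3, a T lineage regulator (16.5 and 8.98 kb in EV, 22.6 and 24.3 kb in KO), Maml3, Mib1 and Pofut1. Their ratios were 1.84, 1.73, 1.70 and 1.66. For H3K27ac, 24 of 47 were higher in EV and 9 in KO cells, beside 35.5% and 28.5% of all genes. Maml2 had the largest ratio, 3.65, with 24.4 and 25.6 kb in EV and 6.64 and 7.07 kb in KO lists. Fbxw7, which marks the Notch intracellular part for degradation, had 19.3 and 24.4 kb in EV and 14.6 and 13.4 kb in KO lists. Dll4, a Notch ligand of the thymus stroma, had 20.02 and 19.01 kb in EV and 14.1 kb in both KO lists, and Numb followed with a ratio of 1.30. Toward KO cells the largest ratios were those of Mib1 (1.47), Dtx3l (1.43), the protease gene Adam10 (1.36) and the gamma-secretase gene Aph1a (1.25).

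For NIPBL, 9 of 47 were higher in KO and none in EV cells, beside 26.6% and 0.348% of all genes. The largest ratios of means were those of Dtx2 (3.82), Ptcra (3.50), which encodes the pre-T cell receptor alpha chain, Hdac1 (2.16) and Myc (2.13). For DN3 CTCF, 16 of 48 were higher in KO and none in EV cells, beside 44.1% and 0.413% of all genes, led by Pofut1 (2.07), Hey2 (1.57), Adam10 (1.54) and Snw1 (1.51). In NIH-3T3 cells 48 of 49 were higher for CTCF in both induced lists, beside 94.4% of all genes. Adam10 had 0.227 and 0.2 kb untreated and 3.00 and 1.63 kb induced, followed in ratio by Hey1 (4.27), Itch (3.75) and Notch2 (3.36). For NIH-3T3 SMC1, 3 of 49 were past 1.5-fold toward the induced and 3 toward the untreated list, beside 3.03% and 9.94% of all genes. Mfng (2.39) and Neurl1a (1.59) were among those toward the induced list. Jag1 (2.19), Gata3 (1.76) and Dll4 (1.503) were those toward the untreated list. Scaled by list total, 5 genes of this list were KO higher and 19 EV higher for DN3 SMC1.

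The genes with the most similar coverage over the 25 lists, by Euclidean distance of log2 covered bp plus 1000 and at least 1 Mb away, were Tcte2 and Ahdc1 for Notch1 and Vps45 and Dgkz for Notch3. Rbpj was nearest to Add1 (distance 1.81) and Ndufa7 (1.83), beside a median of 6.48 over all genes. For the targets they were Klf3 and Atg9a for Hes1, Lat and Spns1 for Dtx1, and Mfng and Nat9 for Nrarp. The smallest of these 12 distances was 1.23, between Notch3 and Vps45.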

How the data were processed

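ChIP-seq peaks of CTCF, SMC1, NIPBL, H3K27ac and TCF-1 were analysed in 25 lists. Per the labels' protocols, chromatin was fixed in 1% formaldehyde and libraries were sequenced as 38 and 37 base pairs of reads. Bowtie2, MACS2, bedtools and mm10 are named in the submitters' processing notes, with versions not given in the sources used here. The authors deposited peak positions for each sample's list, and for NIPBL and H3K27ac also a score, a fold enrichment and the −log10 p-value and −log10 q-value of each peak, which are the authors' own values. Fold enrichment was used only to describe peaks. For NIPBL and H3K27ac, q-values set the stricter threshold and the peaks kept in lists of equal length. Peaks of CTCF, SMC1 and TCF-1 had no q-value and were ranked by width, so these settings kept their wider peaks.

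Covered bp per window was computed here with Python 3.11.15, NumPy 2.4.6, pandas 2.3.3 and SciPy 1.17.1, with figures from matplotlib 3.10.9. A gene was called where the 2 lists of a condition lay wholly above or below the other 2, or past 1.5-fold where a condition had 1 list. Log2 differences used a pseudocount of 1000 bp. Regions of different lists were merged when they overlapped by at least 1 bp. Only genes with a peak in some list of the comparison were tested, and the calling was tested on simulated data. Named genes were the 6 genes, their window neighbours, up to 4 pathway genes per comparison and direction by ratio, and the 2 most similar genes of each. Alternatives changed the window, the threshold, the scale, the merging and the lists used. The genes and lists were chosen with earlier results of these data known. Some named genes are not reported here.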

Additional observations from a re-analysis of the deposited data

Results flagged for a closer look

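For 6 genes and antibodies the difference between cells with and without TCF-1 had opposite directions in the 2 cell lines, in every list. None of these opposite directions was tested, and NIH-3T3 SMC1 had 1 list per condition. The share of all genes with such opposite directions is not given here. Over all genes, 73.8% were KO higher for DN3 SMC1, and the median log2 difference of NIH-3T3 SMC1 was -0.05. For CTCF, 44.1% of all genes were KO higher in DN3 cells and 94.4% were induced higher in NIH-3T3 cells. Values are covered kb in cells with TCF-1 minus cells without it. For SMC1, Notch1 was at -11.3 kb in DN3 and 5.37 kb in NIH-3T3 cells, and Notch3 was at -6.69 kb in DN3 and 8.98 kb in NIH-3T3 cells. Hes1 SMC1 was at -8.56 kb in DN3 and 14.2 kb in NIH-3T3 cells, and Dtx1 SMC1 was at -4.58 kb in DN3 and 0.606 kb in NIH-3T3 cells. Scaled by list total, the DN3 difference of Dtx1 turned to 0.049 (log2), the same direction as in NIH-3T3 cells, and the DN3 lists of both Dtx1 and Notch1 overlapped. Rbpj SMC1 had the inverse order, 3.92 kb in DN3 and -6.86 kb in NIH-3T3 cells. Nrarp CTCF was at -1.38 kb in DN3 and 0.627 kb in NIH-3T3 cells, where the KO and the induced lists were the longer ones in total. Scaled by list total, both Nrarp differences turned, to 0.074 and -0.56 (log2).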

How the results depend on the processing

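Unequal list lengths, 2 lists per condition and the choice of window, threshold and measure limit these counts. Scaling by list total gave, as genes of the 6 higher in EV and KO, 3 and 0 for CTCF, 2 and 2 for SMC1 and 3 and 1 for NIPBL, and for NIH-3T3 CTCF 1 induced and 2 untreated; in the wider list these were 18 and 5, 19 and 5, 11 and 3, and 13 and 14. With lists cut to equal length, 2 genes were KO higher for CTCF, beside 35.2% of all genes. H3K27ac then had 0 EV and 3 KO higher, beside 33.7% and 30.6%. At equal length, KO-only regions were 1 (CTCF), 3 (SMC1) and 1 (NIPBL), NIPBL EV-only 0 and NIH-3T3 CTCF induced-only 1. The wider list had 4 (CTCF), 2 (SMC1) and 1 (NIPBL) EV higher, beside 3.4%, 2.67% and 2.54% of all genes. It had 1 untreated higher, beside 1.23%. In the gene body alone, CTCF had 2 and NIPBL 1 KO higher, beside 38.5% and 26.5% of all genes. NIH-3T3 CTCF had 3 induced higher there, beside 78.3%, and NIH-3T3 TCF-1 had 12 sites. With 10 kb flanks, H3K27ac had 2 EV higher, beside 31.1% of all genes, and NIH-3T3 TCF-1 had 23 sites. With 100 kb flanks, KO higher were 0 (CTCF), 1 (NIPBL) and 2 (H3K27ac), beside 45.8%, 26.4% and 29.5% of all genes. H3K27ac then had 4 EV higher, beside 37.9%. The stricter threshold gave 2 CTCF KO higher, beside 40% of all genes. It gave 0 EV and 3 KO higher for H3K27ac, beside 33.5% and 25.4%. It left KO-only regions of 1 (CTCF) and 1 (H3K27ac), NIPBL EV-only 0 and NIH-3T3 CTCF induced-only 4. NIH-3T3 SMC1 then had 2 past 1.5-fold and 5 untreated-only, and TCF-1 sites were 3 (DN3) and 23 (NIH-3T3). Merging across 500 bp left 1 CTCF and 5 SMC1 KO-only regions. Requiring 50% of the region gave KO-only 21 (SMC1) and 8 (H3K27ac), NIPBL EV-only 0 and NIH-3T3 SMC1 induced-only 33. By number of peaks, H3K27ac had 2 EV and 0 KO higher. At 2-fold, NIH-3T3 SMC1 had 0. Either TCF-1 list gave 16 DN3 sites. No share over all regions stands beside the region and site counts of these settings. The gene counts by number of peaks, past 1.5-fold and at 2-fold in this paragraph likewise have no share over all genes. Those counts are not read as particular to the 6 genes. The cause was not tested.

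Leaving out each list gave, for EV and KO higher, 0 to 1 and 1 to 6 (CTCF), 1 to 1 and 4 to 5 (SMC1), 0 to 1 and 2 to 6 (NIPBL), and 1 to 3 and 1 to 3 (H3K27ac), and for NIH-3T3 CTCF 6 induced and 0 untreated each time. EV-only and KO-only regions were 0 to 3 and 3 to 9 (CTCF), 2 to 13 and 18 to 31 (SMC1), 1 to 4 and 3 to 21 (NIPBL), and 4 to 14 and 5 to 9 (H3K27ac), NIH-3T3 CTCF induced-only 13 to 15 and DN3 TCF-1 sites 11. Counts that need both lists rise by construction when 1 is left out. No share of all genes or regions stands beside them, so they are not read as particular to the 6 genes. Among called differences, log2 values reversed by list total at Nrarp CTCF (0.074), Dtx1 SMC1 (0.049), NIH-3T3 CTCF Notch1 (-0.22) and Nrarp (-0.56). Called differences also reversed at Notch3 H3K27ac (0.18) and NIH-3T3 CTCF Hes1 (-0.17) by number of peaks. Dtx1 H3K27ac (-0.27) did so under the stricter threshold. Differences without a call turned by list total too, among them NIPBL at Hes1 (-0.43 to 0.37), Nrarp (-0.53 to 0.35) and Rbpj (-0.02 to 0.76). Nrarp SMC1 went from -0.06 to 0.43. DN3 CTCF went from -0.12 to 0.17 at Notch1, -0.06 to 0.26 at Dtx1 and -0.28 to 0.01 at Rbpj.

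With replicate number as a block, counts of EV and KO higher were 0 and 1 (CTCF), 1 and 5 (SMC1), 0 and 2 (NIPBL) and 1 and 1 (H3K27ac), and for NIH-3T3 CTCF 6 and 0. The share of all genes called under this rule is not given here, so these counts are not read as particular to the 6 genes. Correlations of same-numbered deviations were between -0.37 and 0.14. Whether same-numbered lists share a batch is not given by the labels and was not tested.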
